A study of Rattus norvegicus with 30 samples.

Results

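The EGR group analysed here consisted of 6 rat genes, the EGR transcription factor genes Egr1, Egr2, Egr3 and Egr4 and the genes of their NAB corepressors, Nab1 and Nab2. They were found through the transcript accession of each array probe, and the probe with the highest mean signal stood for its gene. The 6 genes were among 26785 genes on the array and 18333 genes that passed the filter on dim probes. All 6 passed it, Egr3 was measured by 2 probes and the other 5 genes by 1 probe each. Egr2 and Egr4 passed only through the perfused groups, so the filter alone favoured a difference for them, and counts over the 6 genes are given as description.

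Transcript levels were measured with 30 one-colour Agilent arrays, each of a different left ventricle from male Sprague Dawley rats aged 16 to 18 weeks. Every heart was excised under chloral hydrate anaesthesia into ice-cold Krebs-Henseleit buffer. There were 6 groups of 5 hearts: chow hearts perfused with glucose, chow hearts perfused with mannitol, chow hearts without perfusion, and the same 3 groups from rats fed high-sucrose food over 8 to 10 weeks, given in the labels as a model of insulin resistance. Perfused hearts worked outside the body for 60 min at normal temperature and oxygen supply in buffer with 2 mmol/L propionate, 1 mmol/L acetoacetate and 10 mmol/L hydroxybutyrate. The buffer also held 25 mmol/L glucose or, as the osmotic control without glucose, 25 mmol/L mannitol, a sugar alcohol. Per the labels, samples within a group are biological replicates. Non-perfused hearts were frozen right after dissection. Perfused hearts differed from them in the return from the cold to normal temperature, removal of blood, work outside the body and 60 min of time. These cannot be told apart in any comparison of perfused with non-perfused hearts.

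EGR proteins bind GC-rich DNA through zinc fingers and are made within minutes of a stimulus, because their genes need no new protein synthesis to be transcribed. Growth factors, stretch and stress reach these genes mainly through the ERK kinase cascade, which activates serum response factor (SRF) and its ETS partners at CArG boxes, and through CREB at cAMP response elements. In the heart and its vessels EGR1 is known as an early regulator of inflammatory, clotting and growth genes after injury. NAB1 and NAB2 bind EGR1, EGR2 and EGR3 and repress transcription there, and Nab2 is itself known as a gene switched on by EGR factors, while NAB1 is the corepressor that is present more steadily.

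The promoters of the EGR genes are shown because they hold letters of the CArG box, the cAMP response element and EGR sites in different numbers. RefSeq promoter sequences of build GRCr8 were matched for 5 of the 6 genes, and Egr3 was not among them. The 250 bases before each start were searched on both strands for the CArG box, for TGACGT, the core of the cAMP response element, and for the EGR sites GCGTGGGCG and GCGGGGGCG. Capitals mark the matches, which do not overlap each other. The whole window is given for Egr1 and Egr4, and the stretches around the matches for Egr2 and Nab1.
Egr1, GRCr8 chr18:26736828-26737077, plus strand: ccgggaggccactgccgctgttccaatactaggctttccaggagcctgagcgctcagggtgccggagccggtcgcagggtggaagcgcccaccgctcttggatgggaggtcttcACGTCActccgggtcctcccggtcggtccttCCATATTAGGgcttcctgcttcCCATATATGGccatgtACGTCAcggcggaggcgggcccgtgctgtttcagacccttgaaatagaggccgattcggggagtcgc
Egr2, GRCr8 chr20:21054499-21054528, minus strand: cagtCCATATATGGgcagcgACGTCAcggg
Egr4, GRCr8 chr4:119607818-119608067, minus strand: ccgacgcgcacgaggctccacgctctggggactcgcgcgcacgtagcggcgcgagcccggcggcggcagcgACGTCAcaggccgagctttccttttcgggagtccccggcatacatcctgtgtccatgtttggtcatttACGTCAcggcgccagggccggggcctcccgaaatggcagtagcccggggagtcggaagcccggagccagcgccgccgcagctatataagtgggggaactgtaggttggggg
Nab1 upstream copy, GRCr8 chr9:56545432-56545456, plus strand: cccgcggcCGCCCACGCtgggatct
Nab1 downstream copy, GRCr8 chr9:56545464-56545488, plus strand: tcggccgcGCGTGGGCGggagccgg
Nab1 GCGGGGGCG copy, GRCr8 chr9:56545535-56545559, plus strand: ggggcgggGCGGGGGCGgcggaggt
Egr1 held 2 CArG boxes, 96 to 105 and 74 to 83 bases before its start, and Egr2 held 1, at 74 to 83 bases. A CArG box was present in 1.5% of 33469 rat promoters of this length, and 0.0209% had 2 or more. TGACGT was found in 2 copies in Egr1, 1 in Egr2 and 2 in Egr4, and at least 1 copy was present in 6.95% of all promoters. In both Egr1 and Egr2 a copy lay 62 to 67 bases before the start, downstream of the CArG box. Nab1 had 2 copies of GCGTGGGCG in its window, on opposite strands, and 1 copy of GCGGGGGCG 91 to 99 bases before its start. GCGTGGGCG occurred in 0.478% of all promoters and GCGGGGGCG in 2.45%. No searched motif lay in the window of Nab2, and no CArG box in those of Egr4 and Nab1, which says only that these letters were absent there.

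Signals are given as a percentage of each array's 75th percentile, a scale on which values of one gene can be compared between arrays but not between genes. Levels and changes are on the log2 scale of the same values, and "rose" or "fell" is used of genes for which limma's p-value was under 0.05 after Benjamini-Hochberg adjustment over all 18333 genes. In whole tissue, fewer cells of a type and less RNA per cell cannot be told apart. The share of probes well above background was between 48.8% and 75.4% per array. The SD of the negative control spots was above 8 intensity units on 4 arrays, called here arrays of high control spread, namely replicate 2 of the chow non-perfused group, replicates 1 and 5 of the sucrose non-perfused group and sucrose mannitol replicate 5. One slide carried a single array, sucrose mannitol replicate 1, and the other 4 slides each carried all 6 groups. Row 2 of the slides held all glucose arrays and 4 of 5 sucrose mannitol arrays, while row 1 held the non-perfused and chow mannitol arrays.

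The 4 perfusion comparisons set a perfused group against unperfused hearts of the same diet, and ask how EGR transcripts differ after 60 min of work outside the body. Egr1, Egr2, Egr4 and Nab2 rose in all 4 of them. Egr3 and Nab1 passed the test in none, and no member fell. Of all genes tested, 4.83% rose in chow mannitol hearts, 5.47% in chow glucose hearts, 5.53% in sucrose mannitol hearts and 5.54% in sucrose glucose hearts. The 4 comparisons share a control group within each diet, so they are not 4 independent observations. In chow mannitol hearts, whose arrays shared row 1 with the non-perfused arrays, the same 4 genes rose.

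**Figure D1:**
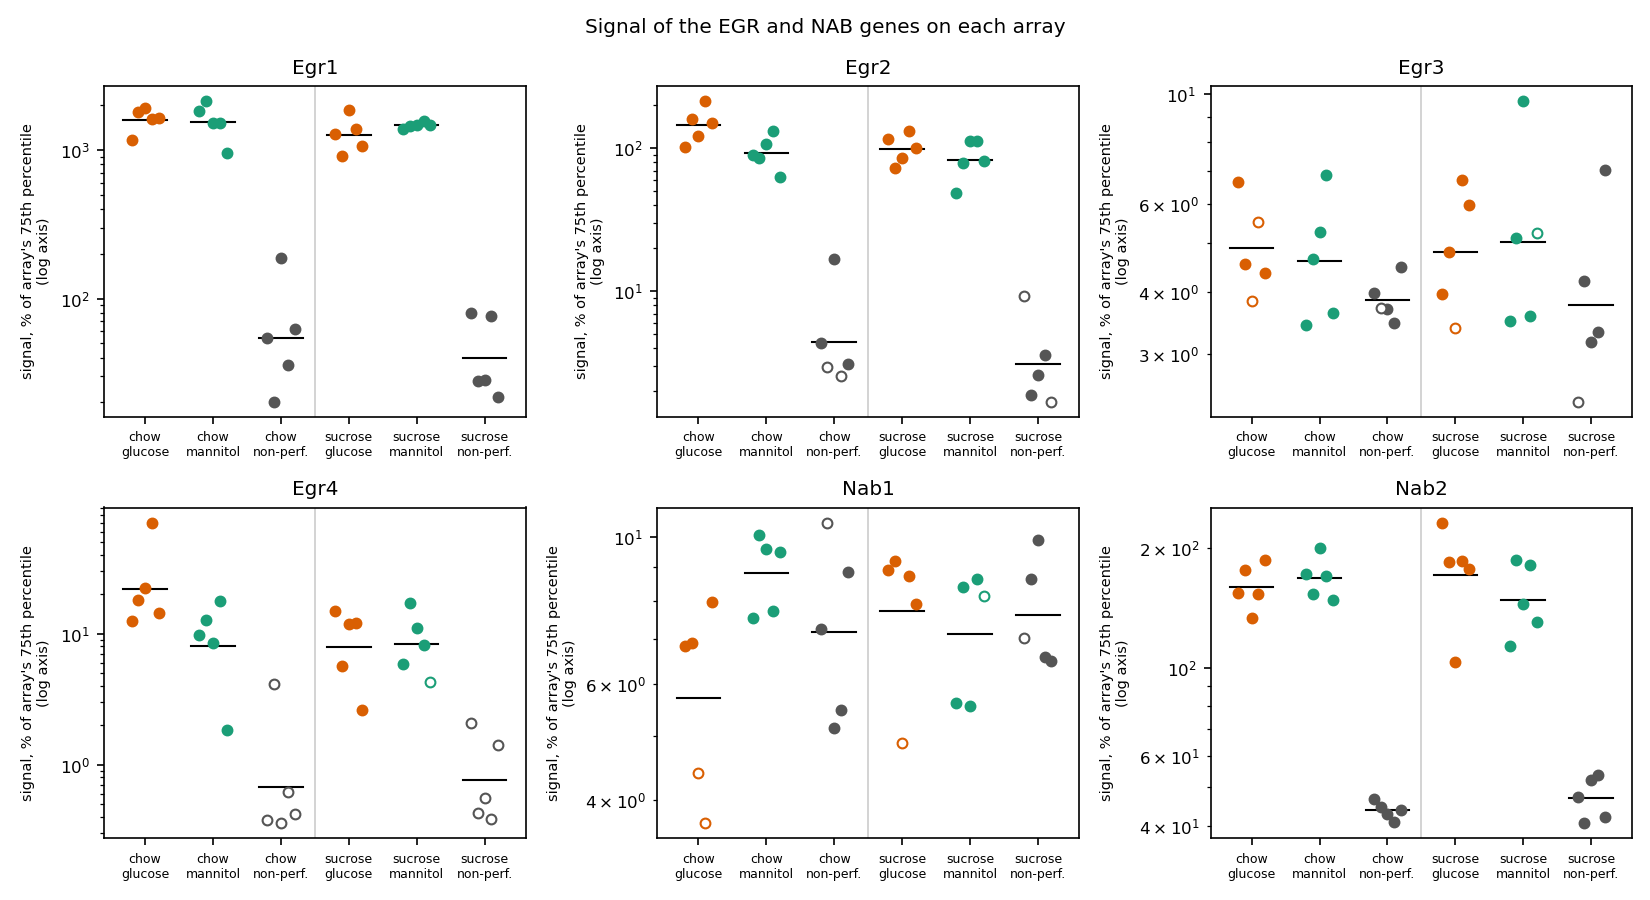
Signal of each gene on each of the 30 arrays, as a percentage of the array's 75th percentile (log axis), in 6 groups of 5 arrays. Filled points were well above background, open points were not, and black lines are means of log values. The perfused points of Egr1, Egr2 and Nab2 lie above every non-perfused point, those of Egr4 overlap the chow non-perfused points in chow mannitol and sucrose glucose hearts, and those of Egr3 and Nab1 overlap.

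Egr1 encodes the founding member of the family, a transcription activator made in response to serum, stretch and vessel injury. In chow hearts its signal was 1161, 1816, 1913, 1624 and 1635% of the 75th percentile with glucose, and 1830, 2141, 1514, 1527 and 949% with mannitol. In chow non-perfused hearts the signal was 54.3, 20.1, 188, 35.8 and 62.7%. Every perfused chow heart was therefore above every non-perfused one, and the non-perfused hearts were the more spread out. In sucrose hearts Egr1 was at 1290, 909, 1876, 1377 and 1069% with glucose and at 1377, 1457, 1485, 1563 and 1470% with mannitol. The sucrose non-perfused hearts had 79.5, 27.8, 28.3, 75.9 and 21.6%. Again the groups did not overlap.

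The log2 rise of Egr1 over non-perfused hearts was 4.83 in chow mannitol hearts (SE 0.40, 28.4-fold, adjusted p = 1.39e-09) and 4.89 in chow glucose hearts (SE 0.40, 29.7-fold, adjusted p = 7.63e-10). In sucrose hearts it was 5.20 with mannitol (SE 0.40, 36.8-fold, adjusted p = 3.32e-10) and 4.98 with glucose (SE 0.40, 31.6-fold, adjusted p = 7.86e-10), with n = 5 arrays per group throughout. By the size of the log2 change Egr1 ranked 8, 10, 6 and 9 among the 18333 genes, with chow mannitol first, then chow glucose, sucrose mannitol and sucrose glucose. Within each of the 4 slides that carried all groups Egr1 was higher in the perfused hearts, by 2.81 to 6.50. The mean log2 levels were ordered chow glucose (4.01), chow mannitol (3.94), sucrose mannitol (3.88), sucrose glucose (3.66), chow non-perfused (-0.89) and sucrose non-perfused (-1.32). In that order no neighbouring groups differed beyond their spread except sucrose glucose and chow non-perfused, a pair whose arrays did not overlap and which differs in both diet and perfusion.

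Egr2, also called Krox20, encodes a factor best known for myelination by Schwann cells and for hindbrain patterning, and it is induced with Egr1 in many cell types. Its signal in chow hearts was 103, 159, 123, 214 and 151% with glucose and 90.2, 85.6, 107, 133 and 62.6% with mannitol. Without perfusion it was 4.38, 2.95, 16.9, 2.56 and 3.09%, with replicates 2 and 4 not well above background. The 10 perfused hearts were all above the 5 non-perfused hearts, among which replicate 3 was the highest, as it was for Egr1. In sucrose hearts Egr2 was at 116, 73.1, 85.9, 131 and 100.1% with glucose and at 48.4, 78.7, 113, 112 and 81.6% with mannitol. The sucrose non-perfused hearts had 9.29, 1.88, 2.60, 3.61 and 1.69%, with replicates 1 and 5 not well above background. These groups did not overlap either.

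Egr2 rose by a log2 change of 4.38 in chow mannitol hearts (SE 0.42, 20.9-fold, adjusted p = 1.96e-08) and 5.03 in chow glucose hearts (SE 0.42, 32.8-fold, adjusted p = 1.15e-09). In sucrose hearts the change was 4.75 with mannitol (SE 0.42, 27.0-fold, adjusted p = 4.61e-09) and 5.01 with glucose (SE 0.42, 32.2-fold, adjusted p = 1.72e-09). Within the 4 shared slides it was higher in perfused hearts each time, by 2.15 to 6.38. With only 3 of 5 arrays above background in each non-perfused group, the size of the fold depends on the treatment of background. The normexp correction used here adds 50 intensity units to every signal, which by itself makes the folds of dim probes smaller. It gave 7.29-fold and 11.2-fold with mannitol and glucose in chow hearts, and 7.23-fold and 8.78-fold with mannitol and glucose in sucrose hearts. The gene still rose in each. Markers of Schwann cells were detected in these hearts, and of the 4 that could be tested none changed in any perfusion comparison.

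Egr4 encodes a member of the family first found as a gene induced by nerve growth factor, which lacks the NAB binding region of EGR1 to EGR3. Its probe was not well above background on any of the 10 non-perfused arrays, so only lower bounds on the fold can be given, set against the lowest level called above background. In chow hearts the signal was 12.4, 18.0, 22.1, 70.3 and 14.3% with glucose and 9.68, 12.6, 8.55, 17.8 and 1.84% with mannitol. The non-perfused chow hearts had 0.378, 4.14, 0.358, 0.622 and 0.425%, all below the limit, and replicate 2, at 4.14%, was one of the arrays with a high control spread. That array exceeded 1 chow mannitol heart, replicate 5, while the glucose hearts were all higher than every non-perfused heart. In sucrose hearts Egr4 was at 15.0, 5.70, 11.8, 12.1 and 2.62% with glucose and at 5.88, 17.0, 11.03, 8.22 and 4.31% with mannitol. Without perfusion the sucrose hearts had 2.09, 0.426, 0.554, 0.387 and 1.41%, again all below the limit, and below every perfused sucrose heart.

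On the scale of the processed signal, the rise of Egr4 was at least 5.26-fold in chow mannitol hearts (adjusted p = 0.000687), at least 14.2-fold in chow glucose hearts (adjusted p = 5.83e-06), at least 4.43-fold in sucrose mannitol hearts (adjusted p = 0.00101) and at least 4.26-fold in sucrose glucose hearts (adjusted p = 0.00125). The adjusted p-values are limma's for the fitted change, which uses the non-perfused values below background, and the bounds were not tested. All 5 arrays of each perfused group were above background except in sucrose mannitol hearts, where 4 of 5 were. With any 1 array left out the bounds lay between 3.61 and 20.4. The lowest chow glucose bound, 10.6, came without chow glucose replicate 4. The bounds do not carry over to another treatment of background. With normexp correction and its 50 added units the fitted folds were 1.97, 3.49, 2.06 and 1.98 in the same order. Egr4 still passed limma's test in each, with adjusted p up to 0.0437. Within the 4 shared slides Egr4 was higher in perfused hearts each time.

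Egr3 encodes a factor that acts with EGR2 in lymphocytes and in muscle spindles. Its signal ran from 3.38 to 9.68% of the 75th percentile over the 20 perfused hearts and from 2.40 to 7.02% over the 10 non-perfused hearts, and the groups overlapped in every comparison. The log2 change was 0.26 in chow mannitol, 0.34 in chow glucose, 0.42 in sucrose mannitol and 0.36 in sucrose glucose hearts (SE 0.27 each), with adjusted p between 0.362 and 0.688. The 95% intervals ran no higher than 0.97, so a rise of the size seen for Egr1 and Egr2 lies outside them for this probe. Averaged over both diets and buffers the change was 0.35 (SE 0.16, unadjusted p = 0.0429, adjusted p = 0.137). The probe was above background on 24 of 30 arrays. The second Egr3 probe was above background on 7 arrays and gave changes of 0.08, 0.48, 0.23 and 1.08 in chow mannitol, sucrose mannitol, sucrose glucose and chow glucose hearts, none of which passed the test.

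Nab2 encodes the corepressor that EGR factors switch on. In chow hearts its signal was 154, 176, 133, 154 and 187% with glucose and 172, 153, 200, 170 and 148% with mannitol, against 46.8, 44.6, 42.9, 40.8 and 43.8% without perfusion. Sucrose hearts had 232, 185, 103, 185 and 177% with glucose and 113, 186, 145, 181 and 130% with mannitol, against 47.2, 40.6, 52.2, 53.6 and 42.2% without perfusion. All perfused hearts were above all non-perfused hearts of both diets. The log2 rise was 1.94 in chow mannitol (3.84-fold, adjusted p = 8.67e-10), 1.87 in chow glucose (3.65-fold, adjusted p = 1.26e-09), 1.66 in sucrose mannitol (3.16-fold, adjusted p = 1.55e-08) and 1.87 in sucrose glucose hearts (3.64-fold, adjusted p = 1.73e-09), with an SE of 0.16 each. Nab2 was the most even of the rising members in the unperfused state: its chow non-perfused hearts differed by 1.15-fold at most, while those of Egr1 differed by 9.32-fold.

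Nab1 encodes the paralogous corepressor. Its signal ran from 3.69 to 10.1% over the perfused hearts and from 5.14 to 10.5% over the non-perfused hearts, and the groups overlapped throughout. The log2 change was 0.30 in chow mannitol, -0.33 in chow glucose, -0.10 in sucrose mannitol and 0.02 in sucrose glucose hearts (SE 0.22 each), and adjusted p lay between 0.461 and 0.979. The 95% intervals together spanned -0.78 to 0.75. The GCGTGGGCG copies printed above stood in the promoter window of Nab1, which passed no perfusion test. The window of Nab2, which rose, held none. Sites outside the searched windows, or with other letters than those searched, were not examined. The part of EGR sites in the values of Nab1 and Nab2 was not tested.

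**Figure D2:**
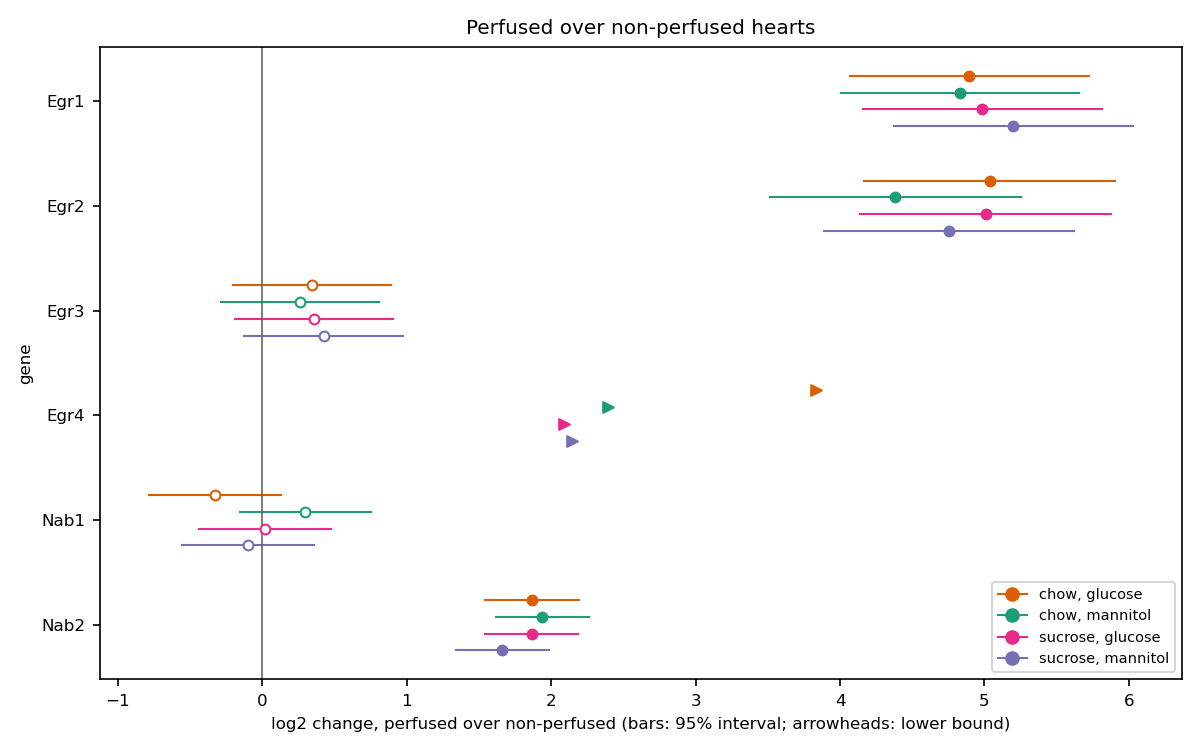
Log2 change of each gene in perfused over non-perfused hearts, for 4 comparisons, with 95% intervals from the limma fit (5 arrays a group). Filled points passed an adjusted p of 0.05 and open points did not. Arrowheads are lower bounds, for Egr4, whose fitted change passed in all 4. Egr1, Egr2, Egr4 and Nab2 lie to the right of 0 in all 4, and the intervals of Egr3 and Nab1 include 0.

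Whether a heart had been perfused accounted for 93.6% of the variance of the log2 levels of Egr1 over the 30 arrays, 91.5% of that of Egr2 and 93.0% of that of Nab2. For Egr3 and Nab1 it accounted for 14.8% and 0.115%, and most of their variance lay within groups (84.4% and 74.7%).

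The other 10 comparisons concern the buffer and the diet. With glucose in place of mannitol, 0% of all genes changed in chow hearts, 0.00545% (1 gene) in sucrose hearts and 0.00545% (1 gene) in the mean of both diets. For sucrose over chow, 0% changed in non-perfused hearts, 0.00545% (1 gene) with mannitol, 0% with glucose and 0% in the mean of both buffers. The 3 differences between diets in the effect of mannitol perfusion, of glucose perfusion and of glucose over mannitol gave 0% each. No EGR or NAB gene passed limma's adjusted p in any of these 10. At an unadjusted p under 0.05 there were 2 members in chow glucose over mannitol and 1 in sucrose over chow with glucose. There was 1 in the diet difference of glucose over mannitol, and none in the others. Under the same limit were 715, 804 and 918 of all 18333 genes in these comparisons, in that order. The member counts are therefore read as description.

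Egr4 and Nab1 made up the 4 member values under that limit. Egr4 in chow hearts was higher with glucose than with mannitol by 1.44 (SE 0.68, 2.71-fold, unadjusted p = 0.0453, adjusted p = 0.999), and higher in 4 of 4 shared slides. Chow glucose replicate 4, at 70.3%, was the highest value, and without it the difference was 1.02. Egr4 with glucose was lower in sucrose than in chow hearts by a log2 change of -1.46 (unadjusted p = 0.0427, adjusted p = 0.999), and was -1.03 without the same array. Nab1 in chow hearts was at 6.84, 6.91, 4.39, 3.69 and 7.97% with glucose, against 7.55, 10.1, 9.59, 7.74 and 9.49% with mannitol, a log2 change of -0.63 (SE 0.22, unadjusted p = 0.00888, adjusted p = 0.999). Glucose replicates 3 and 4 were not well above background for Nab1, and array row differs between these groups, so row and buffer cannot be told apart. The same difference in sucrose minus that in chow hearts was 0.74 for Nab1 (SE 0.31, unadjusted p = 0.0253, adjusted p = 0.984).

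For Egr1 and Egr2 the fitted intervals of the buffer and diet differences were wide. Each rests on 1 spread per gene over all 6 groups, so non-perfused hearts add to it even where they are not compared. The SD of Egr1 was 0.07 to 0.44 in the perfused groups and 0.89 and 1.19 in the non-perfused groups. That of Egr2 was 0.34 to 0.50 and, without perfusion, 0.99 and 1.11. The same SE served perfusion and buffer comparisons alike. Egr1 differed between glucose and mannitol by 0.06 in chow hearts (95% interval -0.76 to 0.89) and by -0.22 in sucrose hearts (-1.04 to 0.61). Egr2 differed by 0.65 (-0.22 to 1.52) and 0.26 (-0.61 to 1.12) in the same order. Nab2 had narrower fitted intervals, with -0.07 (-0.39 to 0.25) in chow and 0.20 (-0.12 to 0.53) in sucrose hearts. Its SD was 0.17 to 0.43 in the perfused groups, a range that overlaps that of Egr1 there, and 0.07 and 0.18 in the non-perfused groups. The change with glucose perfusion in sucrose hearts minus that in chow hearts was 0.09 for Egr1 (-1.08 to 1.26), -0.03 for Egr2 (-1.25 to 1.20) and -0.0034 for Nab2 (-0.46 to 0.45). The corresponding values with mannitol were 0.37 (-0.80 to 1.54), 0.37 (-0.86 to 1.59) and -0.28 (-0.74 to 0.18). For Egr4, below background on all 10 non-perfused arrays, no size of this difference is given. In hearts without perfusion, sucrose over chow was -0.44 for Egr1 (-1.26 to 0.39) and -0.53 for Egr2 (-1.40 to 0.34).

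**Figure D3:**
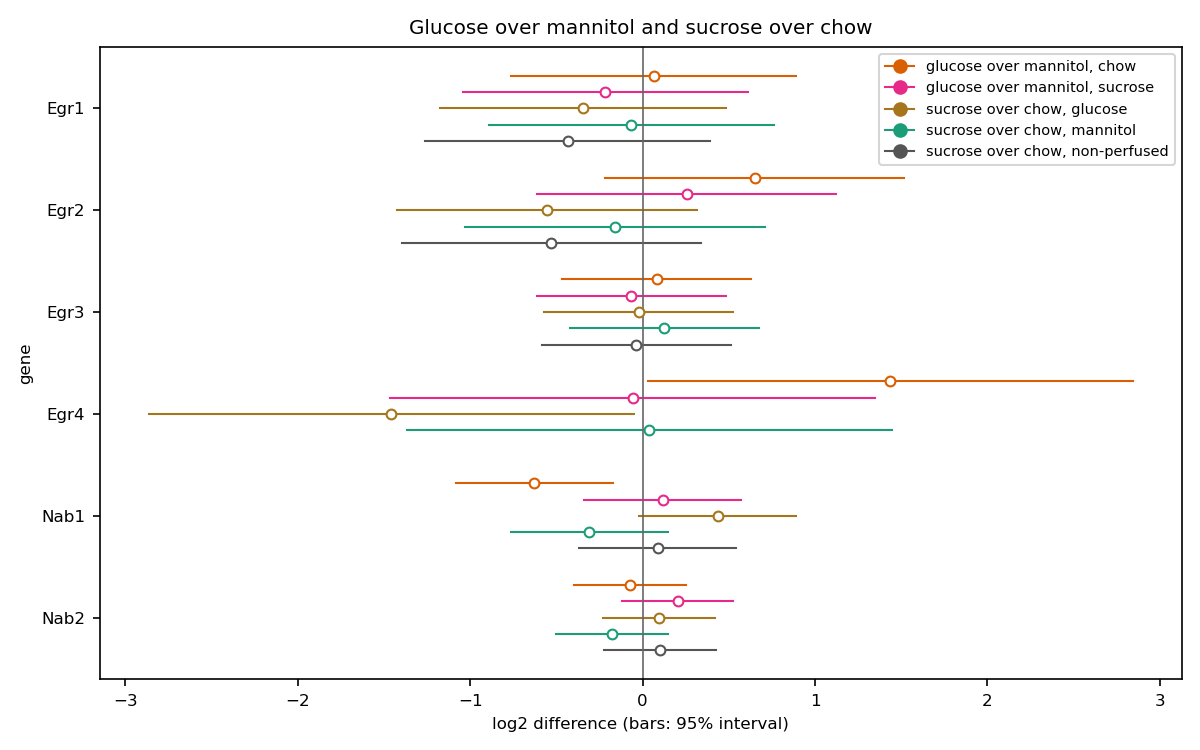
Log2 difference of each gene for glucose over mannitol in each diet and for sucrose over chow in each state, with 95% intervals (5 arrays a group). All points are open because none passed an adjusted p of 0.05, and Egr4 has none for hearts without perfusion, where it was below background. The Egr4 intervals are the widest and those of Nab2 the narrowest.

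Hearts of one group differed in EGR signal by amounts that depended on the group. In sucrose mannitol hearts Egr1 had an SD of 0.07 on the log2 scale, against 1.19 in chow non-perfused and 0.89 in sucrose non-perfused hearts (n = 5 each). The plot of Egr2 against Egr1 shows the non-perfused hearts spread along both axes, with chow non-perfused replicate 3 highest in both. On that array 14 of 18 genes listed as immediate-early genes of the SRF type were also at their highest of the 5 chow non-perfused arrays. In the sucrose non-perfused group replicate 1, an array of high control spread, was highest for 8 and replicate 4 for 7 of those 18 genes. These were the arrays with the most Egr1, at 79.5 and 75.9%. How often each array was highest over all genes was not counted, so these counts are read as description.

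**Figure D4:**
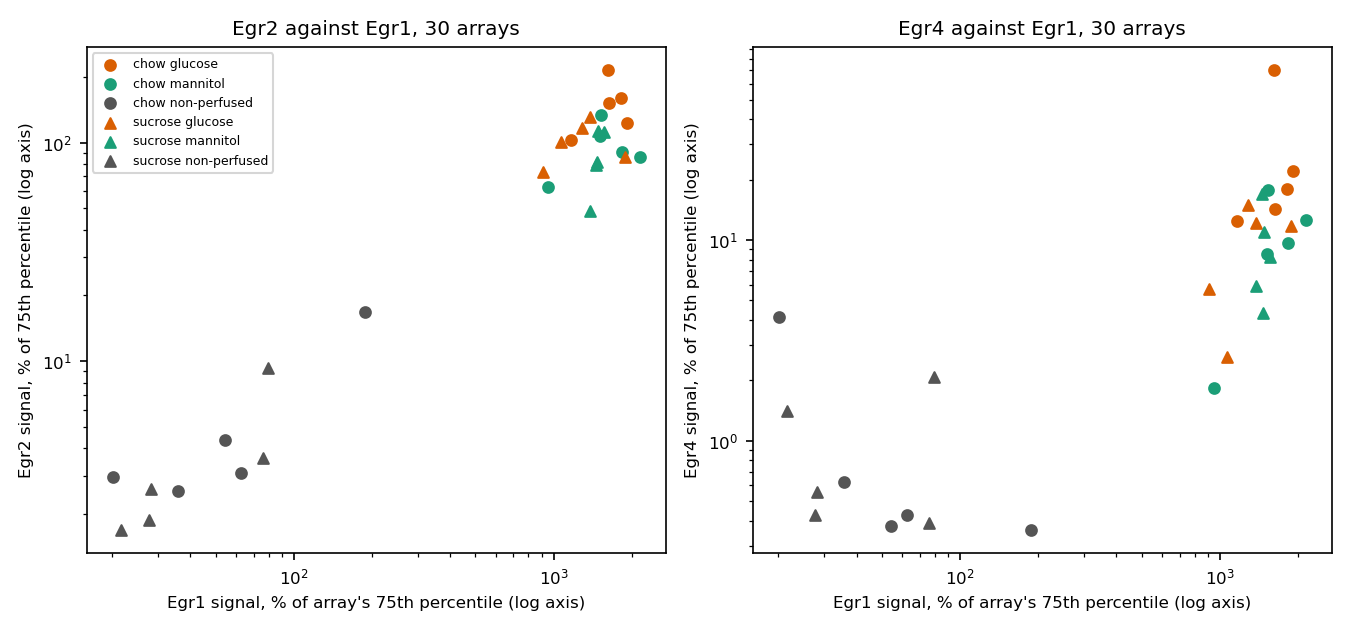
Signal of Egr2 (left) and Egr4 (right) against that of Egr1 on all 30 arrays, as percentages of the array's 75th percentile (log axes). Circles are chow and triangles sucrose hearts. The 20 perfused arrays form a cluster at 909% or more of Egr1, apart from the 10 non-perfused arrays at 188% or less, so no pooled correlation is given.

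Over the 20 perfused arrays, as deviations from group means, Egr1 correlated with Egr4 (Pearson r = 0.60, Spearman rho = 0.46) and with Egr2 (0.36 and 0.25). Its correlations with Egr3 (-0.21 and -0.32), Nab1 (-0.34 and -0.17) and Nab2 (-0.22 and -0.07) were negative. Egr2 correlated with Egr4 (0.59 and 0.53), Nab2 (0.47 and 0.48) and Egr3 (0.46 and 0.48), and Nab1 with Nab2 (0.67 and 0.65). Egr4 and Nab1 had a negative value (-0.37 and -0.30), and the other 5 pairs lay between -0.05 and 0.22 by Pearson's r. These arrays share slides, and the values are a description without a test. The 5 genes with the highest r to Egr1 over the same 20 arrays were Junb (0.80), C2h5orf34 (0.77), G6pc3 (0.75), Ier2 (0.74) and Rasd1 (0.73). Junb, Ier2 and Rasd1 also rose with perfusion, with mean log2 changes of 4.05, 2.69 and 3.94.

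By the size of their 4 perfusion changes, the genes nearest to Egr1 were Nr4a1, Cxcl1 and Nr4a2, with root mean square differences of 0.35, 0.47 and 0.62 on the log2 scale. Nr4a1 and Nr4a2 encode orphan nuclear receptors, and Cxcl1 a neutrophil-attracting chemokine. The same 3 genes were nearest to Egr2, in the order Nr4a2 (0.36), Nr4a1 (0.54) and Cxcl1 (0.54). Klf16 (0.08), Klf6 (0.13) and Noct (0.14) were nearest to Nab2. No nearest genes are given for Egr4, whose changes are known only as lower bounds.

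Of 18 listed genes upstream of EGR transcription (the ERK cascade, SRF, its cofactors and CREB) 14 were measured. In each chow comparison 2 of them rose and 1 fell, and in each sucrose comparison 1 rose and 1 fell. Of all genes tested, 3.65% fell in chow mannitol, 4.04% in chow glucose, 5.67% in sucrose mannitol and 3.14% in sucrose glucose hearts, beside the shares that rose given above, so these counts are read as description. Their median log2 change lay between -0.07 and 0.02. Rps6ka3, which encodes a kinase downstream of ERK, rose in all 4 comparisons, with a mean log2 change of 0.44 (SE 0.06, adjusted p = 5.46e-06). Srf rose in both chow comparisons, by 0.32 with mannitol and 0.50 with glucose, and its changes of 0.29 and 0.17 in sucrose hearts did not pass the test. Creb1 fell in 3 of 4, with a mean log2 change of -0.35 (SE 0.06, adjusted p = 4.41e-05). Elk3 fell in 1 of 4, sucrose mannitol hearts, and in the mean of both diets and buffers (-0.29, limma's adjusted p = 0.0103). In that mean 2 of the 14 genes rose and 4 fell, and the share of all genes was not counted for it. In the tests of a difference between diets in the perfusion change, 0% of all genes passed, these included.

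Other genes listed as immediate-early genes of the SRF type moved with the EGR genes. Of 18, 17 rose in all 4 comparisons, and Fosb, a subunit of AP-1, passed the test in none, with changes between -0.24 and 0.16. Of all genes tested 4.83% to 5.54% rose per comparison, and the share that rose in all 4 was not counted. The median log2 change of the list was 2.19, 2.34, 2.30 and 2.23 with mannitol and glucose in chow and then in sucrose hearts, while the median of all genes lay between -0.05 and -0.01. Klf6, a zinc finger factor, rose by a mean of 1.75, Ier5 by 2.14 and Ier3 by 2.29 (SE 0.07, 0.08 and 0.10). Their changes were smaller than those of Egr1 and Egr2 and their errors were smaller too.

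Genes reported elsewhere as EGR1 targets gave a mixed picture. Beside the 4.83% to 5.54% of all genes that rose per comparison, 13 of 32 such genes rose in chow mannitol and 14 in chow glucose hearts. In sucrose hearts 15 rose with mannitol and 16 with glucose, and 12 rose in all 4 comparisons. Among those 12 were the inflammatory genes Ccl2, Icam1, Il1b and Tnf, the fibrinolysis gene Plaur, the stress genes Gadd45a and Gadd45b, and Flt1, Vegfa, Tgfb1 and Thbs1 of vessels and matrix. Ccl2, a monocyte-attracting chemokine, rose by a mean of 3.67 (SE 0.19), Gadd45b by 2.56 (SE 0.08) and the adhesion molecule gene Icam1 by 2.43 (SE 0.11). Hpse, which encodes heparanase, fell in both chow comparisons, by a log2 change of -0.30 with mannitol and -0.28 with glucose, and Sod1 fell in sucrose mannitol hearts by a change of -0.22. A further 14 genes passed the test in none of the 4 comparisons, among them Fn1 and Fgf2. The median of the list lay between 0.41 and 0.58. The list was chosen with earlier results of these data known, and many of these genes also have other regulators, whose part was not tested.

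**Figure D5:**
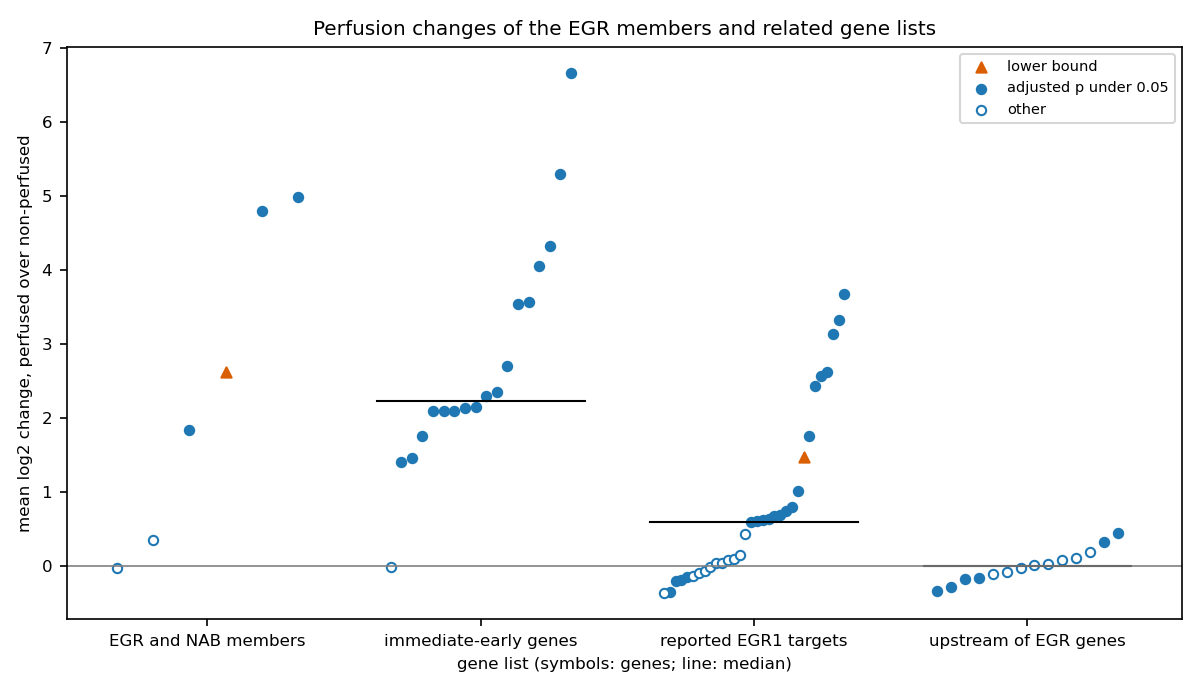
Mean log2 change over both diets and buffers, perfused over non-perfused, of the 6 EGR and NAB genes, 18 immediate-early genes, 32 reported EGR1 targets and 14 upstream genes. Points are genes ordered by change, filled where adjusted p was under 0.05, and lines are medians. Triangles are lower bounds, for Egr4 and Thbs1, which were above background on no non-perfused array. The medians are 2.22 for the immediate-early genes, 0.59 for the targets and -0.01 for the upstream genes, and none is drawn for the 6 members.

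Among 5 measured factors that bind GC boxes like those of EGR proteins, Wt1, which encodes the Wilms tumour factor, rose in all 4 comparisons, with a mean of 0.94 (SE 0.11, adjusted p = 2.7e-07). Sp1 fell in 3 of 4, with a mean of -0.29 (SE 0.05), and Klf9 rose in sucrose mannitol hearts by 0.38. Maz and Zfp148 passed no test. Of 7 proteins reported to work with NAB or EGR proteins 3 were measured (Crebbp, Ddx20 and Psmb8), and none changed in any of the 4.

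Cell type markers moved with perfusion as well. Red cell markers fell in 4 of 5 genes in each comparison: their summed signal was 7.09 to 20.5 times the 75th percentile in chow glucose hearts, 7.97 to 77.0 times in chow mannitol and 427 to 624 times in chow non-perfused hearts, and 6.54 to 10.96 times in sucrose glucose, 5.67 to 18.1 times in sucrose mannitol and 431 to 690 times in sucrose non-perfused hearts. The neutrophil genes S100a8 and S100a9 fell in each, and neither was above background on any array of the perfused chow hearts. The B cell marker Cd79b fell in all 4 comparisons. Of 3 tested platelet markers 2 (Clec1b and Pf4) fell in chow and 1 (Clec1b) in sucrose hearts. T cell markers rose in 2 of 4 tested genes (Cd2 and Lck) in all but the chow mannitol comparison. Of 6 markers of resident macrophages, 3 (Mrc1, Lyve1 and Cd163) rose in sucrose mannitol hearts, 2 (Mrc1 and Lyve1) in sucrose glucose hearts and 0 in the chow comparisons. In the mean over both diets and buffers 5 of the 6 rose, a mean for which the share of all genes was not counted. None differed between diets in its perfusion change. The summed signal of the 6 was 4.76 to 6.46 times the 75th percentile in sucrose glucose hearts and 5.02 to 6.83 times in sucrose mannitol hearts, against 3.61 to 5.57 times in sucrose non-perfused hearts. In chow hearts it was 4.54 to 5.73 times with glucose, 4.50 to 5.58 times with mannitol and 3.93 to 5.88 times without perfusion. The ranges overlapped within each diet. Of 5 endothelial markers, Cldn5, a tight junction gene, rose in all 4 comparisons and the other 4 did not pass the test. Of 3 sympathetic neuron markers, the neuropeptide gene Npy fell in all 4. Single fibroblast markers (Tcf21 in chow glucose hearts, Dcn in both sucrose comparisons) and Cnn1 of smooth muscle in sucrose glucose hearts rose, and no atrial marker passed the test. All 6 cardiomyocyte markers were above background in every group. They passed the test in 0 of 6 except that Pln fell in sucrose mannitol hearts, and their summed signals overlapped between the groups of each diet. The part of these shifts in the EGR changes was not tested.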

How the data were processed

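Each file is the scanner output of one array. Per the file headers, the deposited processed signal is an intensity that Agilent Feature Extraction background-subtracted and detrended within the array, with low values replaced by a floor, and nothing was applied between arrays. The headers name version 11.0.1.1 of that program and the submitters' processing notes 10.3. The authors' deposited series table holds log2 values, whose scaling between arrays is not given in the sources used here. On every array these values tracked log2 of the mean background-subtracted intensity (lowest correlation 0.9994), medians were 7.23 to 7.24, and their direction is that of the signal.

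Spots of one probe were averaged without outlier spots, and processed intensities were put on the log2 scale relative to the 75th percentile of their array. Probes were named through RefSeq accessions (18355 of 30367 had a symbol). A gene was tested if 4 or more of the 5 arrays of some group had its brightest probe well above background, which removed 8452 of 26785 genes. limma 3.58.1 in R 4.3.3 fitted 1 mean per group and 1 spread per gene shared by all 6 groups. The p-values of each of 14 comparisons got Benjamini-Hochberg adjustment, with 0.05 as the limit. The method was tested on simulated data. Lower bounds use, on each array without a value above background, the lowest signal called above background. Alternatives were normexp correction with an offset of 50 intensity units, other scalings between arrays, other filters on dim probes and choices of probe. Further ones were slide or replicate number as a block, array weights and moderated variances with a trend. The authors' values, and fits without single arrays or arrays that stood apart, were also used. No probe was saturated. The number of arrays limits the precision.

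The members, gene lists, tests and alternatives were chosen with earlier results of these data known. All 6 members are named in every comparison. The 3 called genes with the smallest p for the mean perfusion change were named from each list, and the nearest 3 genes (5 for Egr1 over the perfused arrays) by likeness; some of the genes these rules and lists name are not reported here. Other listed genes were named after their values were seen, to say which made up a count. Marker lists covered cardiomyocytes, red cells, neutrophils, T cells and Schwann cells, among others. Replicate numbers in the titles did not pair the samples: the mean correlation of deviations was -0.04 between same-numbered arrays and 0.20 between arrays sharing a slide.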

Additional observations from a re-analysis of the deposited data

Results flagged for a closer look

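In each group of 5 arrays the highest and lowest value of each gene was set against Dixon's critical value of 0.71, over 36 gene and group sets, of which chance flags about 1 in 20. In chow non-perfused hearts, Egr2 on replicate 3 lay far above the other 4 arrays, with a log2 level of -2.57. The same heart was highest for Egr1, without passing that limit, and for 14 of 18 immediate-early genes, with no such count made over all genes. Egr4 on chow non-perfused replicate 2 was far above the rest of its group, at -4.59, on an array with a high spread of control spots and without being well above background. Nab1 on sucrose glucose replicate 3 lay far below the others at -4.36 and was not well above background. No difference between diets in the perfusion change of a member passed the test.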

How the results depend on the processing

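The count of risen members, 4 in each perfusion comparison, and of 0 in the other 10 comparisons was recomputed under 16 other settings and with each of the 30 arrays left out in turn. Leaving out any 1 array kept the counts at 4 and 0. A filter on all 30 arrays gave 2 risen members in each perfusion comparison, since Egr2, Egr4, Egr3 and Nab1 then leave the fit. The authors' deposited values gave 3, because Egr4 had values on only 1 of 10 non-perfused arrays and was not fitted. The other 14 settings gave 4, and no setting called a member in the other 10 comparisons. No called change reversed. With the replicate block the counts were 4 and 0 as well, and it changed no call. Egr1 changes over all settings lay between 4.43 and 5.45, and those of Nab2 between 1.43 and 2.05. Over all genes, chow mannitol calls of 1556 became 360 with the authors' deposited values and 843 with normexp, and chow glucose calls of 1742 became 418 and 969. Sucrose mannitol calls of 2054 became 412 and 967 in the same order, 1088 with only the compared groups and 1270 when the 4 arrays of high control spread were left out. Sucrose glucose calls of 1592 became 446 and 848. The part of the added normexp offset was not separated, and the cause of these shifts was not tested. The folds of Egr2 and Egr4, dim without perfusion, are the least certain. The printed intervals are not adjusted for the number of genes tested. Differences between buffers or diets as large as their widths, or larger, could therefore be missed.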
